A study of Mus musculus with 9 samples.

Results

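The proteins that carry out and steer pre-mRNA splicing were followed in mouse T cell lymphoma through the genes whose symbols begin with Snrp, U2af or Hnrnp, or with Sf3a, Sf3b, Prpf or Srsf and a number, without processed copies marked -ps. The rule used names alone and no measured value. It found 69 of the 46078 genes in the table, of which 67 passed the filter on low counts that left 15401 genes for testing. The remaining 2 were Snrpn, which encodes the SmN protein known from neurons, and a second row with the symbol Srsf1.

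RNA came from 6 MYCN-induced T cell lymphomas taken from the thymus and from 3 preparations of CD4+ T cells taken from the spleen, and every sample was of the strain C57BL/6J. MYCN belongs to the MYC transcription factors, and the control samples carry no label for it. The promoter or cell type that drives MYCN, the animals' age, and whether the preparations came from separate animals are not given in the sources used here. The p-values below therefore measure the spread between these samples, part of which may be technical. Sex, tissue of origin and tumour state coincide with group in this design and cannot be told apart. The libraries are named by the numbers in their labels, lymphoma 34, 53, 56, 70, 72 and 86 and CD4 1, 2 and 3. Reads came from transcript 3′ ends, so the values count messages and do not show how any message was spliced.

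Splicing is done by the spliceosome, which is built on each intron from small nuclear ribonucleoproteins (snRNPs). Each snRNP holds a small nuclear RNA and, except for U6, a ring of Sm proteins, and the U1 and U2 particles find the 5′ splice site and the branch site before the tri-snRNP of U4, U6 and U5 joins. SR proteins bind exons and mostly promote the use of nearby splice sites, whereas hnRNP proteins coat the nascent RNA and often restrain it. In T cells, regulators of this kind set isoforms such as those of the surface phosphatase CD45.

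MYC family proteins bind the E-box, whose letters are CACGTG and read the same on both strands. RefSeq promoter windows (GRCm38.p6, 250 bases before to 50 bases after a gene's start) were found for 58 of the tested members, and 9 of them (15.5%) held the motif in at least 1 listed window, against 2187 of 27025 genes in the whole promoter table (8.09%). The whole promoter table includes genes that were not tested here, and a gene with several windows had more chances to hold the motif. The 2 shares were matched for neither, so they do not show an enrichment. The motif was present in 5 of 40 members that were higher in lymphoma, in 2 of 7 that were lower and in 2 of 11 that did not pass the test. Among core snRNP genes the share was 2 of 21, and among SR and hnRNP genes 5 of 29. The 100 bases just before a listed start, where they held the motif, are shown for the member with the largest rise and another that rose. The same is shown for a member that fell and a member that did not pass the test, because the same letters stood in all of them. They are Snrpa at chr7:27196272-27196371 on the minus strand, Hnrnpd at chr5:99978939-99979038 on the minus strand, Prpf39 at chr12:65036234-65036333 on the plus strand and Hnrnpf at chr6:117907704-117907803 on the plus strand. Each is printed 5′ to 3′ along its gene's strand with the E-box in capitals.
Snrpa: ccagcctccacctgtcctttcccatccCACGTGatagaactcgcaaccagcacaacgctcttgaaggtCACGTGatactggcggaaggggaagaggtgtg
Hnrnpd: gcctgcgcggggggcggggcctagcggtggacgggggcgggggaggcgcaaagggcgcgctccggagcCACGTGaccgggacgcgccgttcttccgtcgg
Prpf39: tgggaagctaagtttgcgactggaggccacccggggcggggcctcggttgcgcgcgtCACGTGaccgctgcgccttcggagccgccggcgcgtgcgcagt
Hnrnpf: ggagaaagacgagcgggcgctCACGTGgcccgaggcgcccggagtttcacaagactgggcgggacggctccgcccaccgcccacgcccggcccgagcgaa
The Snrpa stretch held 2 copies of the motif and each of the others 1. The matches describe these letters in these windows, and binding was not measured here.

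Reads counted in genes ranged from 11170704 to 15769679 in the lymphomas and from 8099960 to 10808828 in CD4, and reads in no annotated gene made up 16.6% to 22.5% and 30.4% to 33.3% of all reads. Levels are given as CPM, counts per 1000000 gene counts after TMM scaling. Lymphoma 53 stood apart: its median correlation of log2 CPM with the other lymphomas was 0.888, against 0.943 to 0.950 for the rest. The T cell marker Cd3e ranged from 150 to 217 CPM in lymphoma and from 138 to 192 CPM in CD4, and Cd4 from 6.0 to 71.9 CPM and from 199 to 263 CPM. Of 13 T cell markers 4 were lower (Cd4, Cd2, Cd28 and Bcl11b) and the other 9 did not pass, with a median log2 fold change of -0.51 and summed levels of 2647 to 4398 CPM in lymphoma and 4094 to 4479 CPM in CD4. Markers of other cells moved with the groups as well. All 15 B cell markers were lower in lymphoma, with summed levels of 269 to 454 CPM against 3414 to 3968 CPM in CD4, as were 7 of 8 plasmacytoid dendritic cell markers (95.9 to 390 CPM against 783 to 837 CPM) and 7 of 13 myeloid markers (183 to 2294 CPM against 1124 to 1430 CPM). Of 6 tested erythroid markers 2 were higher (148 to 233 CPM against 40.7 to 50.2 CPM), and of 7 tested stromal and epithelial markers 2 were higher and 2 lower (97.8 to 181 CPM against 218 to 240 CPM). No B cell, plasmacytoid dendritic or myeloid marker was at 0 in all libraries of a group, while Cdh5 was at 0 in every lymphoma and Dcn, Krt5, Krt8 and Foxn1 in every CD4 library. All 22 proliferation genes were higher in lymphoma (4486 to 6171 CPM against 504 to 656 CPM). Their part in the results below was not tested, and in bulk RNA fewer cells of a type and less RNA per cell cannot be told apart.

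Most splicing genes found by the symbol rule were more abundant in lymphoma. With p-values from edgeR (quasi-likelihood F, Benjamini-Hochberg adjusted over 15401 genes), 47 of the 67 tested members were higher in lymphoma at an adjusted p under 0.05, where 24.7% of all tested genes were, and 8 were lower, where 21.9% of all tested genes were. The other 12 did not pass. The median log2 fold change, lymphoma over CD4, was 0.90 over the members and 0.04 over all tested genes. At 2-fold or more, 27 members were higher (17.9% of all tested genes) and 3 lower (17.2%). In 49 members every lymphoma library lay above every CD4 library and in 8 every one lay below, against 22.6% and 22.3% of all tested genes. Together the members took 1.87% ± 0.0525 (SD, n = 6) of gene counts in lymphoma and 1.24% ± 0.0437 (SD, n = 3) in CD4. Without lymphoma 53 the counts were 49 higher and 8 lower, and without lymphoma 53 and CD4 3 they were 46 and 7. Leaving out CD4 3 alone gave 42 higher and 3 lower.

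**Figure D1:**
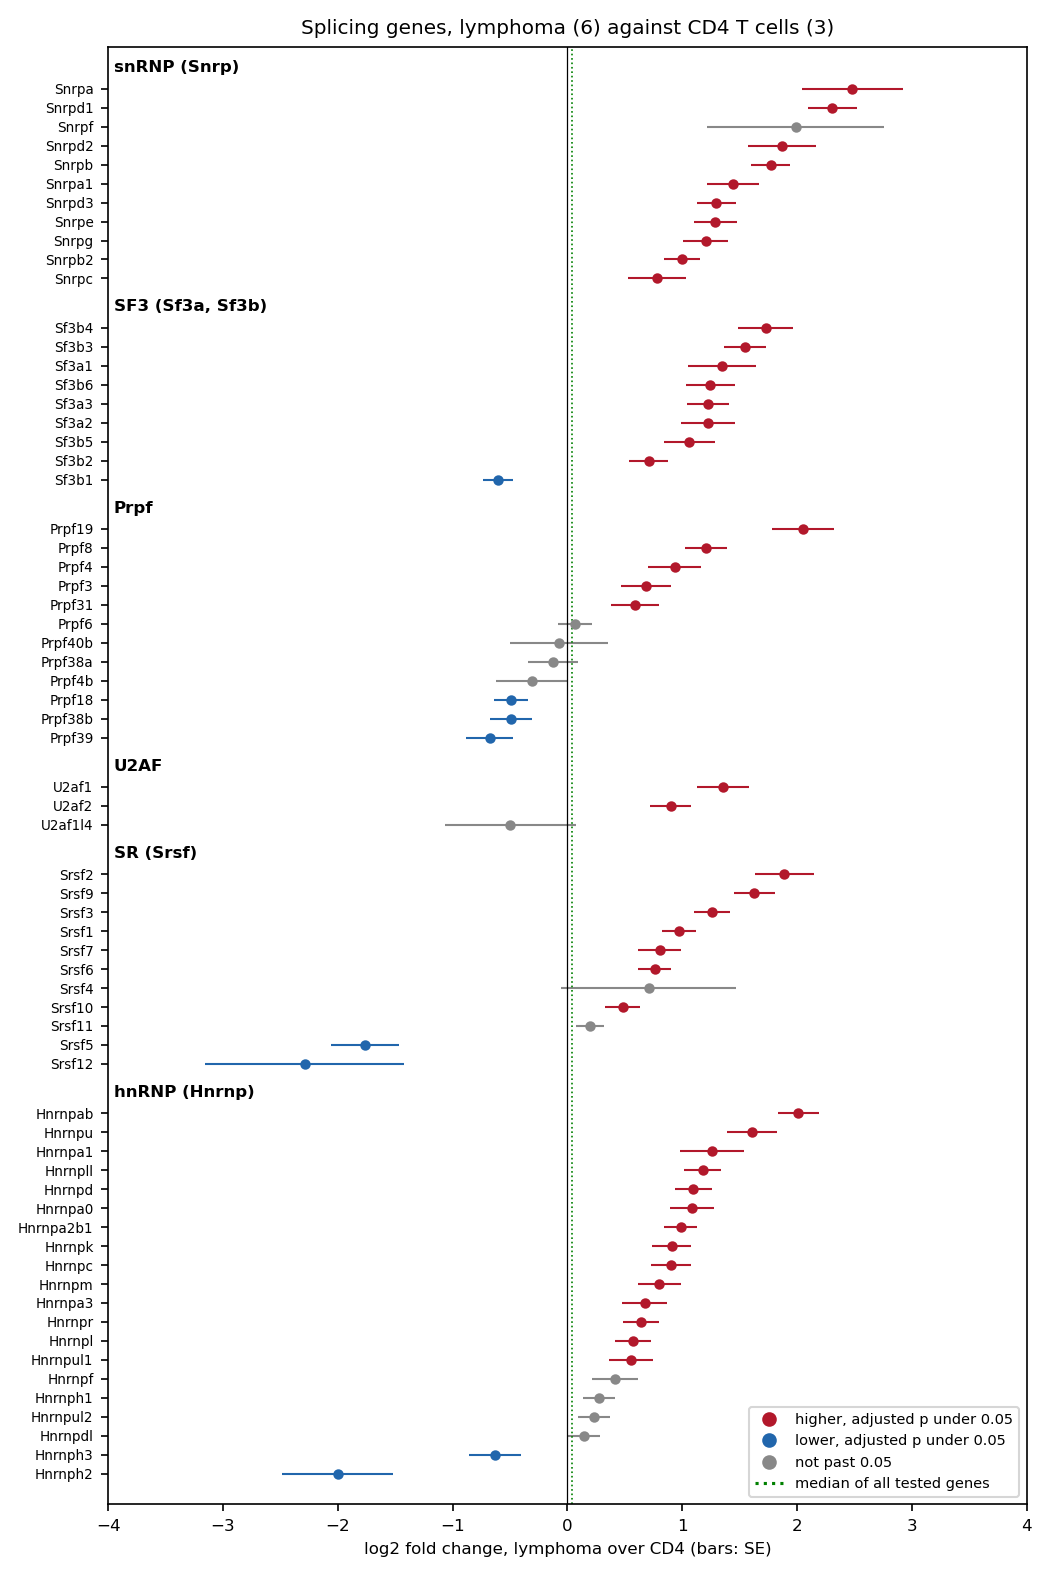
Log2 fold change of the tested members (1 not shown), lymphoma (6 libraries) over CD4 T cells (3 libraries), on the horizontal axis, with genes in rows by class. Points are edgeR estimates, bars their SE, and the dotted line the median of all tested genes (0.04). The Snrp genes all lie to the right of 0, whereas the Prpf genes lie on both sides.

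The core of the machinery was higher as a body. Of 25 tested core snRNP genes (Snrp, Sf3a and Sf3b, and the tri-snRNP genes Prpf3, Prpf4, Prpf6, Prpf8 and Prpf31), 22 were higher in lymphoma, Sf3b1 was lower and Snrpf and Prpf6 did not pass. Their median log2 fold change was 1.23. Of 31 tested SR and hnRNP genes, 21 were higher, 4 lower and 6 did not pass, with a median of 0.76. The 11 members outside both, U2AF and the other Prpf genes, had 4 higher (36.4%), 3 lower (27.3%) and a median of -0.13. Over all tested genes 24.7% were higher and 21.9% lower. These medians describe the classes, and no test of the difference between them was made.

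Sm proteins form the ring around each small nuclear RNA, and their genes gave some of the clearest separations. Snrpd1, which encodes SmD1, was at 410, 498, 457, 372, 407 and 527 CPM in lymphomas 34, 53, 56, 70, 72 and 86 and at 118, 68.2 and 84.0 CPM in CD4 1, 2 and 3. The lowest lymphoma was above the highest CD4 library, and the log2 fold change was 2.31 (SE 0.211, edgeR adjusted p = 6.14e-06 after Benjamini-Hochberg adjustment). Snrpb, which encodes SmB and SmB′ and lies at chr2:130171414-130179403 on the minus strand (GRCm38), was at 333, 447, 348, 319, 325 and 401 CPM in lymphoma and 99.6, 101 and 118 CPM in CD4. Its groups did not overlap either (log2 fold change 1.77, SE 0.170, edgeR adjusted p = 8.71e-06). Snrpd3, the gene of SmD3, was at 267, 282, 332, 220, 276 and 319 CPM in lymphoma and at 102, 121 and 122 CPM in CD4. That is a log2 fold change of 1.30 (edgeR adjusted p = 8.22e-05, SE 0.170), with all lymphomas above all CD4 libraries.

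Snrpd2, Snrpe and Snrpg encode the remaining Sm proteins that passed the test. Snrpd2 ranged from 121 to 264 CPM in lymphoma, with a median of 154 CPM, and was at 62.2, 40.4 and 44.5 CPM in CD4 (log2 fold change 1.87, edgeR adjusted p = 0.000313). Snrpe rose by 1.29 and Snrpg by 1.20 on the log2 scale. For all 3 genes the lymphoma libraries lay above the CD4 libraries. Snrpf, the gene of SmF, rested on few reads: its counts were 77, 27, 54, 82, 81 and 144 in the lymphomas and 34, 4 and 3 in CD4. Its log2 fold change of 1.99 did not pass (edgeR adjusted p = 0.0507), but passed in 6 of 18 alternatives (adjusted p 0.00266 to 0.163) and became 3.83 without CD4 1. The last 300 bases of its longest transcript are covered by Ccdc38 on the opposite strand. It entered the test through its lymphoma counts. Snrpn had 0 counts in 5 lymphomas, 2 in lymphoma 53, 0 in CD4 1 and 2 and 10 in CD4 3, where a count of 0 allows up to 3 counts (counting error only).

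The proteins specific to U1 and U2 followed. Snrpa encodes the A protein of U1, which binds a stem-loop of the U1 RNA, and the gene lies at chr7:27187005-27196271 on the minus strand, adjacent to the promoter stretch printed above. It was at 27.5, 61.1, 29.1, 28.8, 18.8 and 36.3 CPM in lymphomas 34, 53, 56, 70, 72 and 86 and at 5.63, 3.0 and 9.27 CPM in CD4, from 25 to 101 counts in the latter. Lymphoma 53 was the highest library, and the groups did not overlap (log2 fold change 2.48, SE 0.439, edgeR adjusted p = 0.000699), the largest rise among the members. Snrpa1, which encodes the A′ protein of U2, was at 124, 166, 134, 148, 144 and 241 CPM in lymphoma and 66.1, 54.7 and 55.3 CPM in CD4. It rose by 1.44 on the log2 scale (SE 0.225, edgeR adjusted p = 0.000297), and lymphoma 86 was the highest library. Snrpb2, the gene of its partner B″, rose by 0.997 on the log2 scale with no overlap. Snrpc, which encodes the C protein of U1, a factor that stabilises pairing with the 5′ splice site, ranged from 27.6 to 58.1 CPM in lymphoma (median 47.2 CPM) and was at 27.9, 32.0 and 19.6 CPM in CD4. Here the groups overlapped, and the rise of 0.78 (edgeR adjusted p = 0.0235) did not pass without CD4 1 or without CD4 3 (adjusted p 0.00242 to 0.108 over 19 alternatives). Snrpc also has 2 near-identical copies elsewhere, whose shared reads are not counted.

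**Figure D2:**
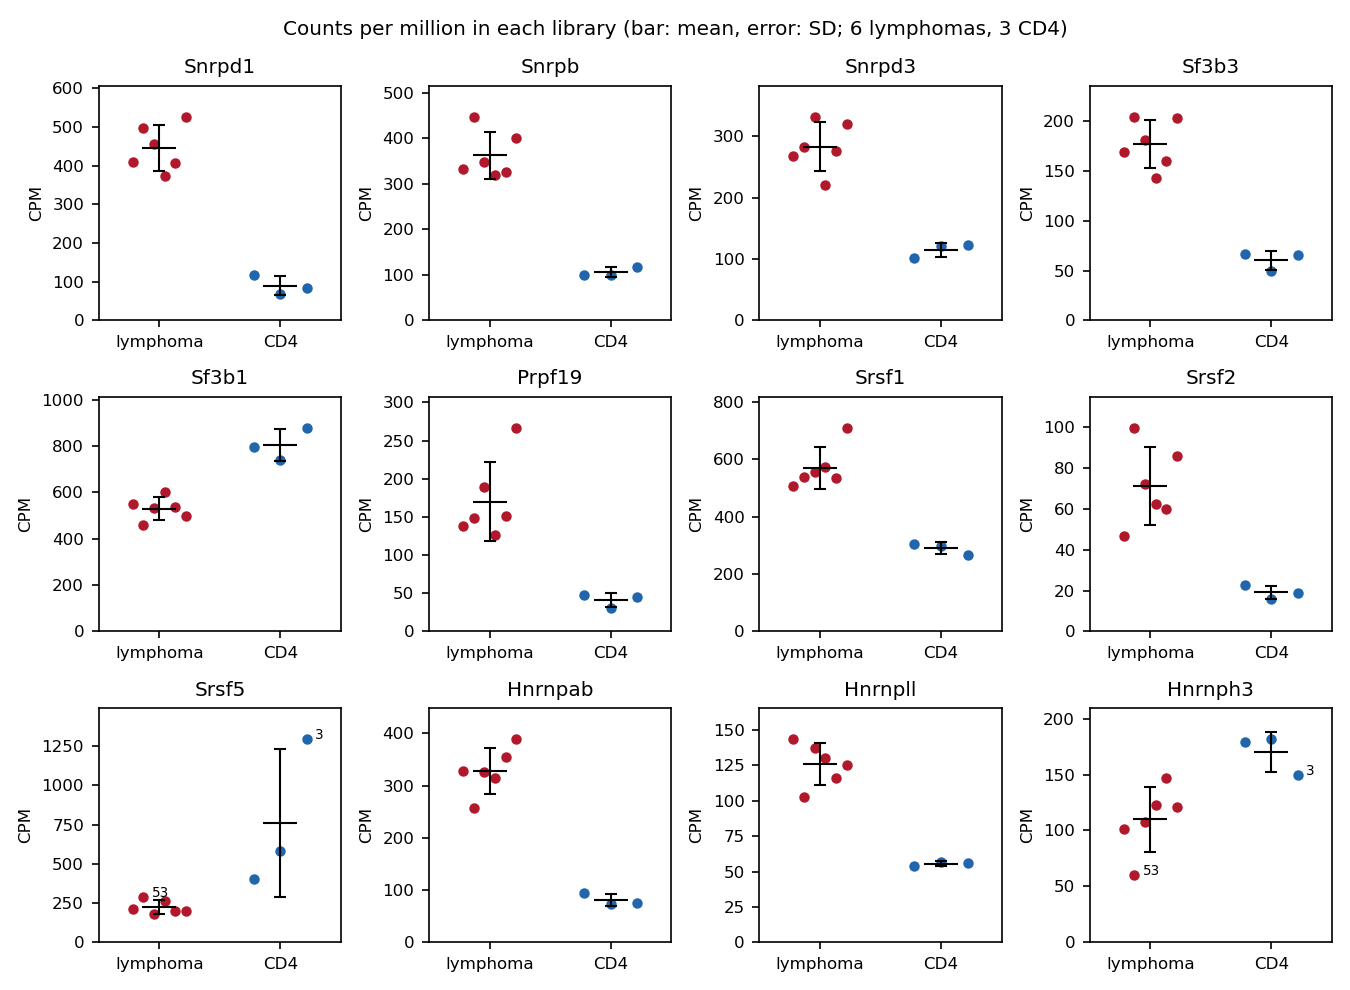
CPM (vertical axis, from 0) of 12 members in each library, lymphoma in red and CD4 in blue; the bar is the mean and the error bar the SD. Lymphomas lie above CD4 for Snrpd1, Snrpb, Snrpd3, Sf3b3, Prpf19, Srsf1, Srsf2, Hnrnpab and Hnrnpll and below it for Sf3b1, Srsf5 and Hnrnph3, and CD4 3 stands at 1297 CPM for Srsf5.

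SF3a and SF3b are the protein complexes that let U2 hold the branch site. All 3 SF3a genes and 5 of the 6 SF3b genes were higher in lymphoma, with every lymphoma above every CD4 library in each. Sf3b4, which encodes a subunit that contacts the pre-mRNA near the branch site, was at 82.4, 132, 96.9, 66.4, 71.99 and 104 CPM in lymphoma and 31.5, 25.6 and 26.6 CPM in CD4 (log2 fold change 1.73, SE 0.239, edgeR adjusted p = 0.000125). Sf3b3, whose product is a scaffold of SF3b, was at 169, 205, 182, 143, 161 and 203 CPM in lymphoma and 66.6, 49.7 and 65.7 CPM in CD4. Its log2 fold change was 1.55 (SE 0.182, edgeR adjusted p = 3.87e-05). The rest ran from 0.71 for Sf3b2 to 1.35 for Sf3a1, and Sf3a1 stood at 322 CPM in lymphoma 53 and at 139 to 158 CPM in the other lymphomas.

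Sf3b1 went the other way. It encodes the largest SF3b subunit, which clamps the branch site helix and is often mutated in human myelodysplastic syndromes, and it lies at chr1:54985169-55027481 on the minus strand. It was at 551, 458, 532, 603, 536 and 496 CPM in lymphomas 34, 53, 56, 70, 72 and 86 and at 794, 740 and 879 CPM in CD4 1, 2 and 3. Every lymphoma was below every CD4 library, and the log2 fold change was -0.60 (SE 0.133, edgeR adjusted p = 0.00294). Once the trend with GC content and transcript length was removed from each library, a choice made after seeing the data, the log2 fold change was -0.21 and did not pass (adjusted p = 0.19, in a range of 7.81e-06 to 0.19 over 19 alternatives). Leaving out any 1 library did not end the call.

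The Prpf genes were mixed: 6 of 13 were higher in lymphoma (46.2%), 3 lower (23.1%) and 4 did not pass. Over all tested genes the shares were 24.7% and 21.9%, so the lower share was near that of genes at large. Prpf8, the scaffold at the heart of U5 and of the catalytic centre, was at 191, 171, 242, 181, 218 and 243 CPM in lymphoma and 86.7, 76.0 and 107 CPM in CD4. The groups did not overlap (log2 fold change 1.21, SE 0.185, edgeR adjusted p = 0.000255). Of the other tri-snRNP genes, Prpf4 (0.94), Prpf3 (0.68) and Prpf31 (0.59), whose products belong to the U4/U6 part, also rose on the log2 scale. The calls of Prpf3 and Prpf31 were lost in 1 and 9 of 19 alternatives, and Gm15927 covers 60.3% of the last 300 bases of Prpf31 on the opposite strand. Prpf6, which bridges U5 and U4/U6, was at 108 to 141 CPM in lymphoma and 109 to 126 CPM in CD4, with overlapping groups and a log2 fold change of 0.06 (edgeR adjusted p = 0.76).

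Prpf19 encodes the ubiquitin ligase of the complex that activates the assembled spliceosome, and the gene lies at chr19:10895231-10909559 on the plus strand. It was at 138, 148, 189, 127, 151 and 267 CPM in lymphoma and at 47.5, 30.7 and 44.8 CPM in CD4. Lymphoma 86 was highest, all lymphomas were above all CD4 libraries, and the log2 fold change was 2.05 (SE 0.272, edgeR adjusted p = 8.97e-05).

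Prpf39, Prpf18 and Prpf38b were lower, each with no overlap between the groups. Prpf39, a U1-associated protein, was at 130, 71.0, 116, 156, 130 and 123 CPM in lymphoma and at 194, 193 and 194 CPM in CD4 (log2 fold change -0.68, SE 0.204, edgeR adjusted p = 0.0167). Prpf38b, related to a factor of the activating spliceosome, ranged from 285 to 546 CPM in lymphoma (median 458 CPM) and was at 631, 680 and 588 CPM in CD4, giving a log2 fold change of -0.49 (edgeR adjusted p = 0.0434, SE 0.183). Prpf18, a factor of the second catalytic step, was at 31.1 to 37.6 CPM against 45.6, 48.8 and 52.8 CPM (log2 fold change -0.49, SE 0.147, edgeR adjusted p = 0.0165). These are small differences whose calls were lost in 4, 10 and 3 of 19 alternatives for Prpf39, Prpf38b and Prpf18, and removing the GC and length trend gave -0.33 and -0.21 for Prpf39 and Prpf38b. The end of Prpf39 is covered over 94.0% of its last 300 bases by Fkbp3 on the opposite strand. Prpf4b, a kinase that acts on tri-snRNP proteins, Prpf38a and Prpf40b did not pass, with log2 fold changes of -0.31, -0.13 and -0.07, and Prpf4b was at 199 CPM in lymphoma 53 and at 608 to 720 CPM in the other lymphomas.

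U2AF recognises the 3′ end of the intron, its large subunit reading the polypyrimidine tract and its small subunit the terminal AG. U2af1, the small subunit, was at 65.9, 104, 71.0, 68.0, 69.6 and 59.7 CPM in lymphoma and 22.7, 26.9 and 36.0 CPM in CD4, giving a log2 fold change of 1.35 (edgeR adjusted p = 0.000459, SE 0.225). U2af2, the large subunit, was at 289, 263, 344, 223, 310 and 355 CPM in lymphoma and 157, 180 and 141 CPM in CD4 (log2 fold change 0.90, SE 0.180, edgeR adjusted p = 0.00159). The groups did not overlap for either gene, though U2af1 has a near-identical copy. U2af1l4, a relative of the small subunit with 7 to 36 counts per library and its last 300 bases within Gm49396, did not pass and its groups overlapped.

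Among SR proteins 7 of 11 tested genes were higher in lymphoma (63.6%), 2 lower (18.2%) and 2 did not pass. Over all tested genes the shares were 24.7% and 21.9%. Srsf2, also known as SC35, was at 46.9, 99.9, 72.03, 62.5, 59.9 and 85.8 CPM in lymphoma and at 22.6, 16.1 and 18.9 CPM in CD4 (log2 fold change 1.89, SE 0.258, edgeR adjusted p = 0.000112). Srsf9 was at 186, 252, 204, 193, 172 and 185 CPM in lymphoma and at 56.01, 61.1 and 75.4 CPM in CD4 (log2 fold change 1.63, SE 0.180, edgeR adjusted p = 2.37e-05). Neither gene's groups overlapped. The last 300 bases of Srsf2 lie wholly under Mettl23 on the opposite strand, and reads of such a pair cannot be told apart where the counting ignored strand, which is not given in the sources used here.

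Srsf3, Srsf1 and Srsf7 encode small SR proteins that also take part in mRNA export. Srsf3 was at 554, 726, 599, 570, 516 and 585 CPM in lymphoma and 271, 212 and 259 CPM in CD4, and rose by 1.26 on the log2 scale (SE 0.159, edgeR adjusted p = 6.33e-05). Srsf1, the founding member of the family and a known proto-oncoprotein, was at 506, 539, 554, 575, 536 and 711 CPM in lymphoma and 305, 298 and 267 CPM in CD4, a rise of 0.97 (SE 0.151, edgeR adjusted p = 0.000281). Srsf7 was at 402, 628, 443, 530, 409 and 387 CPM against 233, 277 and 290 CPM, a rise of 0.81 (SE 0.187, edgeR adjusted p = 0.00404). In all 3 the lymphomas lay above the CD4 libraries, and Srsf3 has a near-identical copy whose shared reads are not counted. Smaller rises were found for Srsf6 (0.76) and Srsf10 (0.48), an SR protein whose dephosphorylated form represses splicing; the call of Srsf10 was lost in 4 of 19 alternatives. Srsf11 (0.20) and Srsf4 (0.71, at 2 to 45 counts per library and wholly under Gm12992 on the opposite strand) did not pass. The value of Srsf4 became 1.46 without CD4 2.

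Srsf5, also known as SRp40, was the abundant exception and lies at chr12:80945504-80950507 on the plus strand. It was at 214, 291, 181, 263, 199 and 198 CPM in lymphomas 34, 53, 56, 70, 72 and 86 and at 406, 580 and 1297 CPM in CD4 1, 2 and 3. The highest lymphoma was below the lowest CD4 library, while CD4 3 was more than 1.5 times each of the other CD4 libraries. The log2 fold change was -1.76 (SE 0.296, edgeR adjusted p = 0.000535) and -1.13 without CD4 3, and the call held in all 19 alternatives (adjusted p 1.16e-07 to 0.00326). Srsf12 was also lower but rested on 0 to 7 counts in lymphoma and 14, 9 and 22 counts in CD4, the group through which it entered the test (log2 fold change -2.29, SE 0.865, edgeR adjusted p = 0.0469). Its call was lost in 10 of 18 alternatives.

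Among hnRNP proteins 14 of 20 genes were higher in lymphoma (70%, against 24.7% of all tested genes), 2 lower (10%, against 21.9%) and 4 did not pass. Hnrnpab, which encodes an AU-rich RNA-binding protein and lies at chr11:51600100-51606847 on the minus strand, was at 327, 257, 325, 315, 355 and 390 CPM in lymphoma and 94.2, 74.4 and 76.0 CPM in CD4 (log2 fold change 2.01, SE 0.178, edgeR adjusted p = 4.73e-06). Hnrnpu, a large protein that also binds chromatin, was at 468, 898, 607, 544, 558 and 778 CPM in lymphoma and at 222, 196 and 214 CPM in CD4 (log2 fold change 1.61, SE 0.219, edgeR adjusted p = 0.000108). Both genes had every lymphoma above every CD4 library. Hnrnpll, known in T cells for directing exon skipping in CD45, was at 144, 102, 138, 131, 116 and 125 CPM in lymphoma and 54.1, 57.1 and 55.96 CPM in CD4. It rose by 1.18 on the log2 scale (SE 0.160, edgeR adjusted p = 0.000108) with no overlap.

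The A1, A2/B1 and K proteins are among the best-studied hnRNPs, and A1 and A2/B1 act as antagonists of SR proteins at many exons. Hnrnpa1 was at 23.5, 30.4, 23.9, 18.8, 19.96 and 28.9 CPM in lymphoma and 12.8, 6.48 and 11.01 CPM in CD4, a log2 fold change of 1.26 (edgeR adjusted p = 0.003, SE 0.279). Hnrnpa2b1 was at 821, 962, 906, 992, 809 and 1000 CPM in lymphoma and 452, 423 and 512 CPM in CD4, a log2 fold change of 0.99 (edgeR adjusted p = 0.000175, SE 0.143). Hnrnpk, a poly(C)-binding protein, was at 520, 522, 517, 533, 526 and 697 CPM in lymphoma and 349, 235 and 300.3 CPM in CD4 (log2 fold change 0.91, SE 0.170, edgeR adjusted p = 0.00105). No lymphoma overlapped CD4 in these 3, and lymphoma 86 was the highest for Hnrnpa2b1 and Hnrnpk. The other 8 that rose ran from 0.56 for Hnrnpul1 to 1.10 for Hnrnpd, an AU-rich element binding protein whose promoter stretch is printed above. Of these, Hnrnpul1, Hnrnpl and Hnrnpa3 lost the call in 7, 1 and 1 of 19 alternatives.

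The H and F proteins bind runs of G. Hnrnph2, at chrX:134601179-134607060 on the plus strand, was at 1.42, 0.731, 2.62, 2.14, 2.49 and 2.89 CPM in lymphoma and 4.39, 11.6 and 8.71 CPM in CD4, from 8 to 97 counts per library (log2 fold change -2.0, SE 0.484, edgeR adjusted p = 0.00516). Hnrnph3 was at 102, 60.4, 108, 123, 147 and 121 CPM in lymphoma and 179, 182 and 150 CPM in CD4 (log2 fold change -0.63, SE 0.228, edgeR adjusted p = 0.0389). Both had every lymphoma below every CD4 library, and the call of Hnrnph3 was lost in 7 of 19 alternatives. Hnrnph1 (0.27) and Hnrnpf (0.42, whose promoter also held the E-box) did not pass, nor did Hnrnpul2 (0.23) and Hnrnpdl (0.14). Every lymphoma lay above every CD4 library for Hnrnph1 and Hnrnpul2, and the other 2 overlapped. After the GC and length correction the log2 fold change of Hnrnph1 was 0.72 and that of Hnrnpul2 0.36, and both passed (edgeR adjusted p = 0.00288 and 0.0492, in ranges of 0.00288 to 0.346 and 0.0492 to 0.485 over 19 alternatives). The log2 fold change of Hnrnpf without lymphoma 53 was 0.48 and passed (adjusted p = 0.0338, in a range of 0.0338 to 0.324 over 19 alternatives). Reads of Hnrnph1 are uncertain because it has a near-identical copy.

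**Figure D3:**
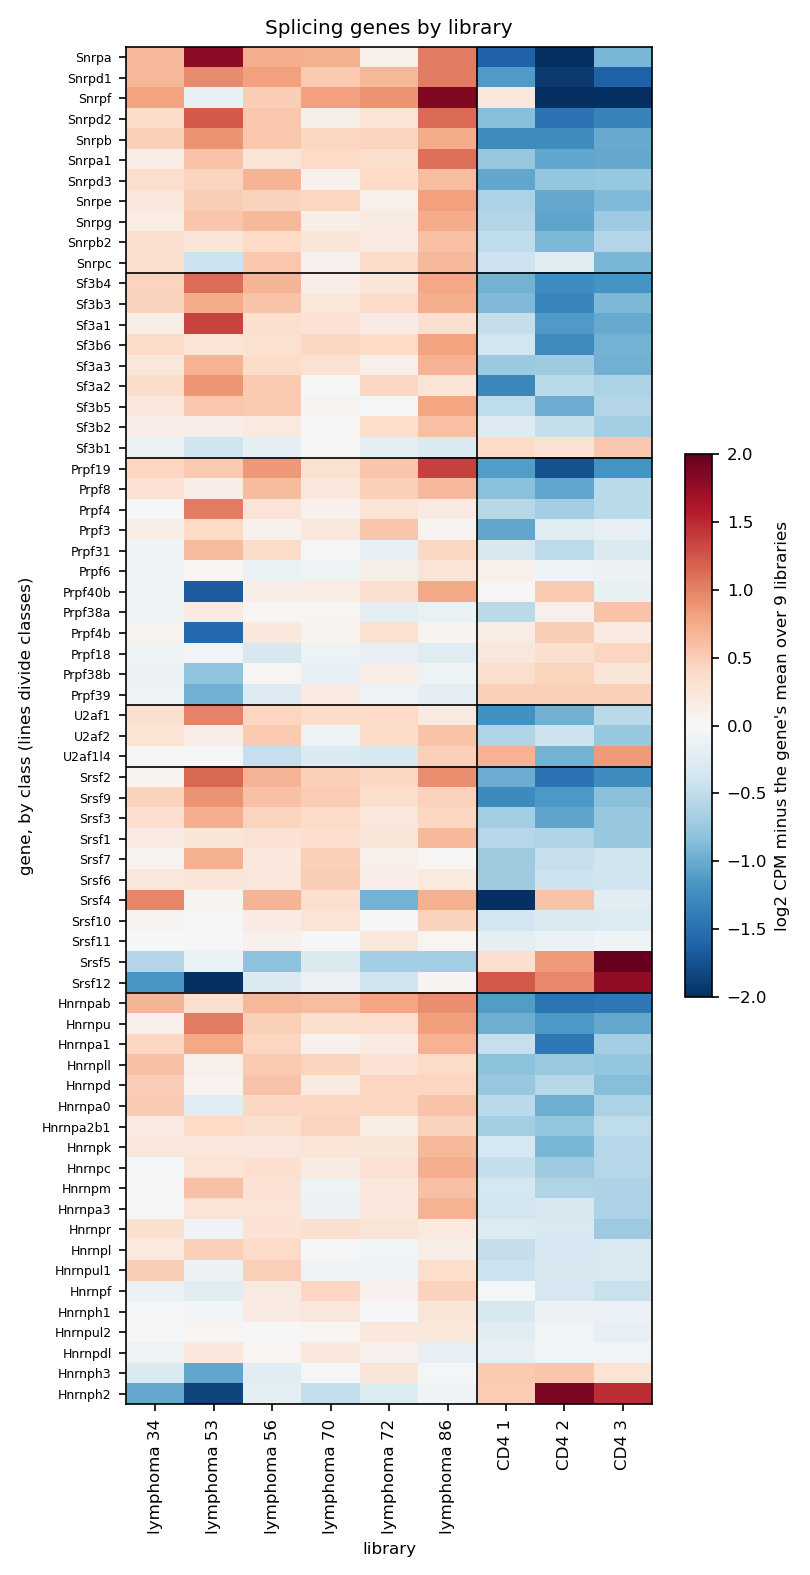
Log2 CPM of the tested members (1 not shown) in each library minus the gene's mean over 9 libraries (colour, limited to -2 and 2), genes in rows by class and libraries in columns. The lymphoma columns are mostly red and the CD4 columns blue, with the opposite pattern at genes such as Sf3b1, Prpf39, Srsf5, Srsf12, Hnrnph3 and Hnrnph2, and lymphoma 53 departs from its group at Prpf4b and Prpf40b.

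Summed over a class, the Snrp genes differed by more than the others. In lymphoma they amounted to 3015 ± 451 CPM (SD, n = 6) and in the controls to 1130 ± 131 CPM (SD, n = 3), a ratio of 2.67, with lymphomas from 2589 to 3713 CPM and CD4 from 990.4 to 1250 CPM. The ratio was 1.75 for the hnRNP genes, 1.37 for SF3, 1.30 for SR and 1.08 for Prpf genes. For SR genes the lymphoma range, 3517 to 4132 CPM, overlapped the CD4 range, 2496 to 3544 CPM. Without Srsf5 the SR ranges were 3303 to 3840 CPM and 2090 to 2247 CPM, a ratio of 1.65. The Prpf sum overlapped as well, with lymphoma 53 lowest at 1805 CPM.

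Set against the SR and hnRNP genes within the same library, the core snRNP counts made a ratio of 0.527, 0.561, 0.546, 0.482, 0.517 and 0.579 in lymphomas 34, 53, 56, 70, 72 and 86 and of 0.500, 0.423 and 0.416 in CD4 1, 2 and 3. CD4 1 fell inside the lymphoma range, so the core as a whole was not separated from the SR and hnRNP genes. Without Srsf5 the ratio was 0.494 to 0.589 in lymphoma and 0.533, 0.464 and 0.503 in CD4 1, 2 and 3. CD4 1 and CD4 3 then lay inside the lymphoma range. The mean ratio in lymphoma over that in CD4 was 1.20 with Srsf5 and 1.09 without it. With Snrp genes alone in the numerator the ratio was 0.243 to 0.315 in lymphoma and 0.188, 0.150 and 0.153 in CD4, and the groups did not overlap. Sf3b1 and Prpf6 are among the core genes that the ratio with Snrp genes alone leaves out.

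**Figure D4:**
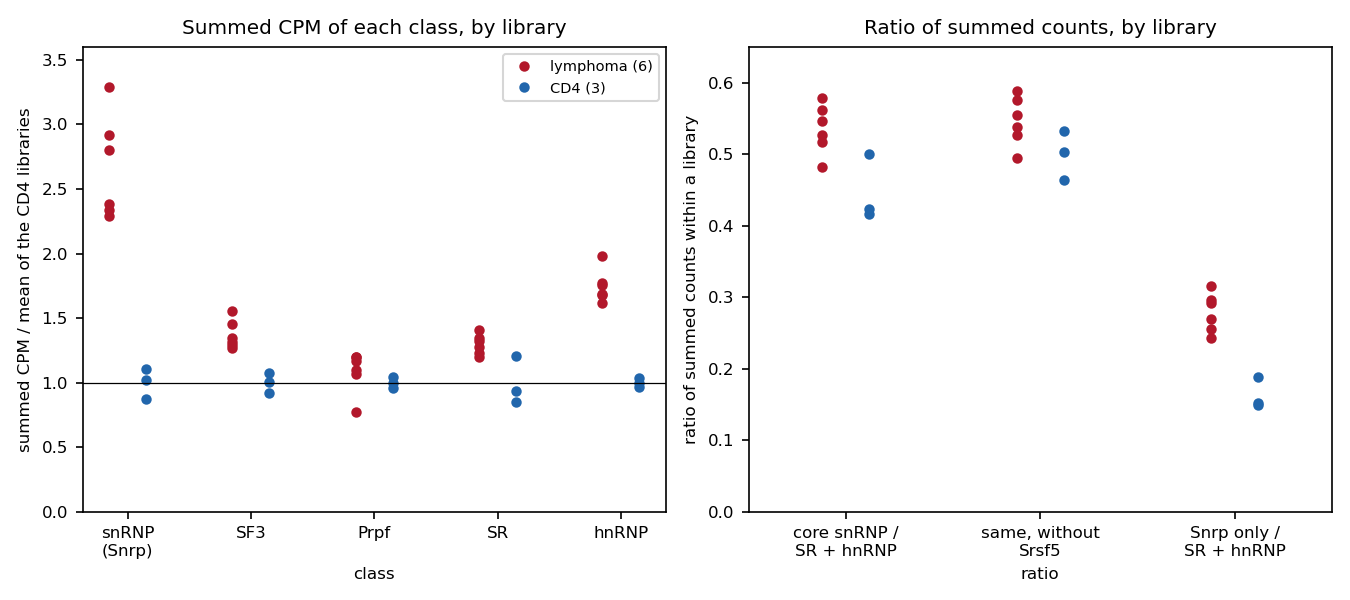
Left, summed CPM of each class in each library divided by the mean of the CD4 libraries; right, the ratio of summed counts within each library, both axes starting at 0. Points are libraries, lymphoma red (6) and CD4 blue (3); the Snrp points separate fully in both panels, whereas the core ratio of CD4 1 (0.500) lies among the lymphomas.

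The members varied less among lymphomas than genes at large. Their median SD of log2 CPM was 0.25 over the 6 lymphomas and 0.19 over the CD4 libraries, against 0.47 and 0.36 over all tested genes, a comparison not matched for counts per gene. The Prpf class was the most variable, at 0.32, and this was 0.16 without lymphoma 53. Lymphoma 53 was the lowest of its group in 22 members and the highest in 22 (32.8% each, against 31.7% and 30.5% of all tested genes), a share near that of genes at large. Lymphoma 86 was the highest in 30 members (44.8%, against 19.3% of all tested genes), among them Snrpd1, Snrpa1, Snrpe, Snrpg, Prpf19, Srsf1 and Hnrnpab.

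Partners of the snRNPs outside the symbol rule were taken from 10 lists of splicing genes, which without members and repeats held 176 tested genes. Of these 76 were higher (43.2%) and 21 lower (11.9%), against 24.7% and 21.9% of all tested genes. The median log2 fold change of the 176 was 0.38. The chain that builds snRNPs had the highest median of the 10 lists. In it the methylosome, with the arginine methyltransferase Prmt5, modifies Sm proteins, and the SMN complex loads them on the RNA. Of 18 assembly and methylosome genes 14 were higher, the log2 fold changes of all 18 ran from 0.0083 to 2.29, and the median was 1.22. Prmt5 was at 210, 424, 247, 246, 273 and 276 CPM in lymphoma and 50.1, 73.1 and 48.2 CPM in CD4 (log2 fold change 2.29, SE 0.254, edgeR adjusted p = 2.48e-05). Strap, a partner of the SMN complex, was at 190, 209, 211, 187, 158 and 251 CPM against 59.9, 36.7 and 55.2 CPM (log2 fold change 1.99, SE 0.213, edgeR adjusted p = 1.90e-05). In both every lymphoma lay above every CD4 library.

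Sm-like LSM proteins form the ring on U6 and a cytoplasmic decay complex. They had 9 of 13 genes higher (69.2%, against 24.7% of all tested genes) and a median of 1.03, led by Lsm2 (2.04) and Lsm3 (1.80). Of the 7 snRNP proteins named Snrnp, 4 were higher, among them Snrnp40 of U5 (1.74) and Snrnp25 of the minor spliceosome (1.21). The list of tri-snRNP and PRP19 complex partners had 18 of 31 higher (58.1%) and 1 lower (3.23%), with a median of 0.68. Ddx39 (1.81), a helicase that was counted with this list here, and Ppil1 (1.75) rose most. Syf2 was lower (-0.54, edgeR adjusted p = 0.0404), with overlapping groups and a call lost in 9 of 19 alternatives. Other early splice site and U2 factors had 5 of 18 higher (27.8%) and 3 lower (16.7%). These shares were near those of all tested genes (24.7% and 21.9%). Phf5a of SF3b was at 1.55, U2surp at 0.85, Rbm5 at -1.02 and Zrsr1, a relative of U2af1, at -2.11. Spliceosomal helicases had 2 of 13 higher, Eif4a3 (1.57) and Dhx15 (0.77), and 2 lower, Ddx5 (-0.92) and Aqr (-0.67), with a median of 0.23. Their shares, 15.4% higher and 15.4% lower, were below those of all tested genes.

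The minor spliceosome removes the rare U12-type introns, and the 8 tested proteins of its list had a median of -0.35, with 1 higher and 3 lower. That list is not the whole minor spliceosome. Snrnp25 (1.21, higher), Snrnp35 (0.39, not past) and Snrnp48 (-0.47, not past) also belong to it and were counted with the proteins named Snrnp. Rnpc3, which binds the U12 RNA, was at 64.5, 35.3, 60.9, 81.5, 70.9 and 61.7 CPM in lymphoma and 100.5, 121 and 99.5 CPM in CD4 (log2 fold change -0.78, SE 0.220, edgeR adjusted p = 0.0123). After removal of the GC and length trend it was -0.12 (adjusted p = 0.543, in a range of 0.00212 to 0.543 over 19 alternatives), and the call was also lost without CD4 2. Armc7 was lower (-2.71) and Zcrb1 higher (0.73), the call of Zcrb1 being lost in 6 of 19 alternatives.

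Kinases that phosphorylate SR proteins, listed with the nuclear importers Tnpo1 and Tnpo3, had 2 of 11 genes higher (18.2%) and 4 lower (36.4%). Over all tested genes the shares were 24.7% and 21.9%. The median of the list was -0.36, and it holds 1 member, Prpf4b. Clk1, a nuclear kinase that releases SR proteins from speckles, was at 246, 200, 218, 322, 256 and 193 CPM in lymphoma and 516, 690 and 1217 CPM in CD4 1, 2 and 3. As with Srsf5, CD4 3 was highest and every lymphoma was below every CD4 library (Clk1 log2 fold change -1.76, SE 0.243, edgeR adjusted p = 0.000124). Clk4 was at 83.2 to 125 CPM against 158, 210 and 208 CPM (log2 fold change -0.85, SE 0.178, edgeR adjusted p = 0.00199). The importers Tnpo1 (1.11) and Tnpo3 (0.50) were higher, the call of Tnpo3 being lost without CD4 1.

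SR-like proteins and the exon junction complex had 7 of 22 genes higher (31.8%) and 4 lower (18.2%), with a median of 0.32. Of all tested genes 24.7% were higher and 21.9% lower. Magohb (2.25) and Rnps1 (1.57), of the junction complex and its periphery, rose most, and the SR-related Rsrp1 was lower at 379, 317, 353, 558, 478 and 300.3 CPM against 1054, 1017 and 1049 CPM (log2 fold change -1.39, SE 0.192, edgeR adjusted p = 0.000124). Rsrc2 was lower by a log2 fold change of -0.74. Other regulators had 14 of 36 tested genes higher (38.9%) and 4 lower (11.1%), with a median of 0.31. Pcbp1 (1.52) and Elavl1 (1.46) rose most, while Mbnl1, the muscleblind protein that shifts exons during differentiation, was at 406, 580, 469, 406, 348 and 546 CPM against 965, 1065 and 1065 CPM (log2 fold change -1.17, SE 0.169, edgeR adjusted p = 0.00017). Ptbp3, a pyrimidine tract binding protein of blood cells, had a log2 fold change of -1.18 and of -0.56 after the GC and length correction (adjusted p = 0.0757, in a range of 3.17e-10 to 0.0757 over 19 alternatives).

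**Figure D5:**
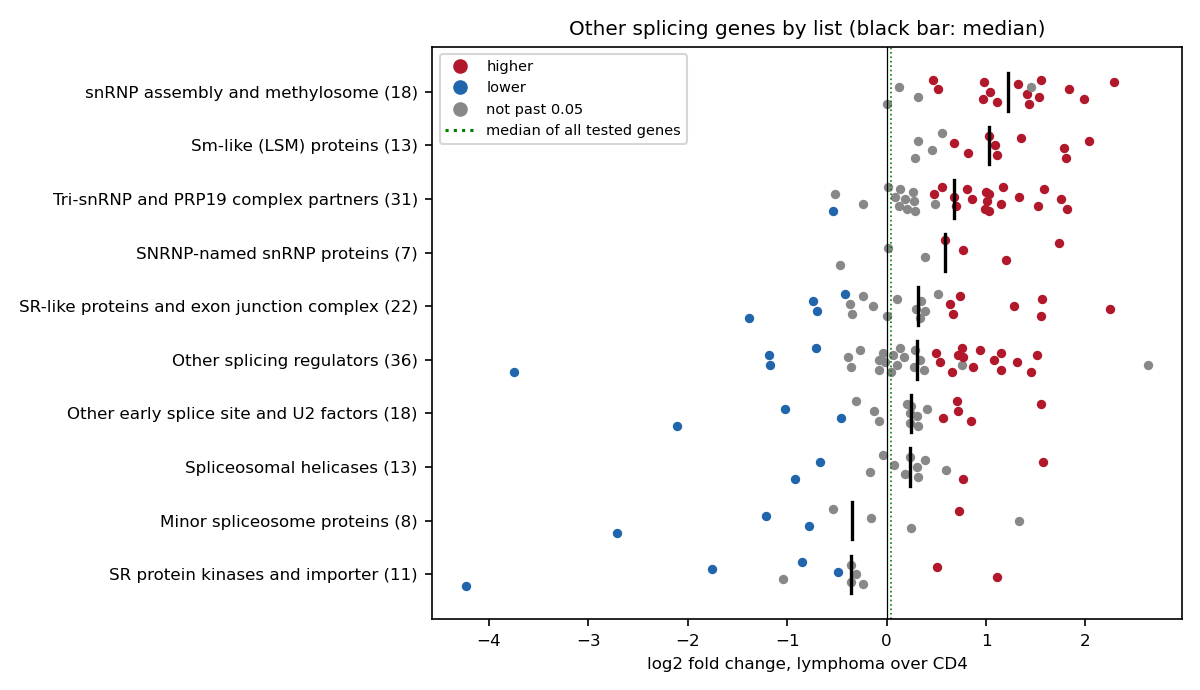
Log2 fold change, lymphoma over CD4, of each tested gene in 10 other splicing lists (rows, with the number of tested genes), red where higher, blue where lower and grey where not past an adjusted p of 0.05; vertical position within a row only separates points. Black bars are list medians, from 1.22 for snRNP assembly and methylosome genes to -0.36 for SR protein kinases and importer, and the dotted line is the median of all tested genes.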

How the data were processed

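The deposited table holds raw read counts per Ensembl gene, per the file headers, for 6 lymphoma and 3 CD4 libraries. The submitters' processing notes name FastQC, HISAT2, SAMtools and HTSeq and the builds mm10 and GRCm38; versions, annotation release and strand setting are not given in the sources used here. Columns with no matching sample numbered 0. The 5 summary rows of reads in no gene entered neither library sizes nor tests; reads in no annotated gene and reads with several alignments made up 16.6% to 33.3% and 11.6% to 18.6% of a library. The table keeps reads with several alignments apart from the genes, which leaves genes with near-identical copies uncertain, as are genes overlapped by others.

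The test was edgeR's (version 4.0.16, R 4.3.3): filterByExpr with a minimum count of 10 (15401 genes kept), TMM scaling, glmQLFit (robust) and glmQLFTest over all 9 libraries with no covariate, and Benjamini-Hochberg adjustment over all tested genes at a threshold of 0.05. An SE is the size of the log2 fold change over the root of its F statistic, and the prior count for log2 CPM was 2. The script was tested on simulated counts in which 200 of 15401 genes were changed. It recovered 17% of the 2-fold and 51% of the 4-fold changes, and 5.56% of its 72 calls were false. In the data 46.6% of tested genes were called, a far larger share than was changed in the simulation. The simulated recovery rates therefore do not carry over to this comparison. A gene that did not pass is still not shown to be unchanged. Overlaps and near-identical copies (at least 98% identity over 75 bases of the last 300 bases, blastn 2.17.0) were read from GENCODE M21, matched for 68 of 69 members by Ensembl ID. Figures were drawn with matplotlib 3.10.9.

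Alternatives were other scalings, filters and thresholds, DESeq2 1.42.0, limma 3.58.1 (voom), each library left out in turn, and lymphomas 34, 70 and 72 averaged, since earlier results of these data had shown them alike. The members and the lists were chosen with earlier results of these data known. Every member may be named, but 1 gene is not reported here by name and counts only in the totals; per-library values are given for a list of 19 members and for the largest rises and falls of each class (2 each), and in each other list the 2 largest rises and falls with an adjusted p under 0.05 and an average log2 CPM of at least 3.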

Additional observations from a re-analysis of the deposited data

Results flagged for a closer look

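In 14 of 75 quantities examined among the 6 lymphomas (the CPM of the tested members reported here, the class sums and the core ratio), 1 library lay far from the rest by Dixon's criterion, which sets the gap to the nearest library against the range of the group. For independent, normally distributed quantities chance alone gives about 1 in 20, or 3.75 here. These quantities are not independent, since the class sums and the ratio reuse the members. The same count was not made over all tested genes, of which lymphoma 53 was the lowest lymphoma in 31.7% and the highest in 30.5%. An excess particular to the splicing genes is therefore not shown. Lymphoma 53 was the library set apart in 7 of the 14. It was the lowest for Hnrnpa0 (422.5 CPM), Hnrnpr (356.5 CPM), the kinase gene Prpf4b (198.7 CPM) and the summed Prpf genes (1805 CPM), and the highest for Prpf4 (167.3 CPM), Sf3a1 (322.3 CPM) and U2af1 (104.1 CPM). Lymphoma 86 was the highest for Hnrnpk (697.1 CPM), Sf3b6 (337.8 CPM), Snrpf (10.4 CPM), Snrpa1 (241.0 CPM) and Srsf1 (710.6 CPM). Lymphoma 70 was the highest for Srsf6 (520.7 CPM) and lymphoma 72 for Srsf11 (967.3 CPM).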

How the results depend on the processing

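Of the 55 members past the threshold, 42 kept their call at an adjusted p under 0.05 in every alternative fit that tested them. The call was lost in at least 1 fit by 13 (Snrpc, Sf3b1, Prpf3, Prpf31, Prpf18, Prpf38b, Prpf39, Srsf10, Srsf12, Hnrnph3, Hnrnpul1, Hnrnpl and Hnrnpa3), and 0 changed direction in edgeR, DESeq2 or limma. The stricter thresholds, an adjusted p under 0.01 or 2-fold, enter neither these counts nor the alternatives counted for single genes. Of the 12 tested members not past it, 4 passed in at least 1 alternative (Snrpf, Hnrnph1, Hnrnpf and Hnrnpul2). Over the alternatives the median log2 fold change ran from 1.12 to 1.34 for core snRNP genes and from 0.66 to 0.90 for SR and hnRNP genes. The count of lower members, 8, became 5 with no filter, with lymphomas 34, 70 and 72 averaged and with the GC and length trend removed, 3 at an adjusted p under 0.01, and 3 to 8 when single libraries were left out, the lowest without CD4 3. At 2-fold, 30 members passed (27 higher, 3 lower), of them 0 lower core genes and 12 SR and hnRNP genes (9 higher). Lower core genes were 0 with the GC and length trend removed, and the Snrp genes alone gave 10 calls, 10 higher and 0 lower. Lower SR and hnRNP genes, 4, became 2 with at least 10 counts in every library and at an adjusted p under 0.01, and 2 to 4 when single libraries were left out. Srsf genes alone gave 9 calls (7 higher, 2 lower) and Hnrnp genes alone 16 (2 lower). The median of all tested genes was -0.0152 with RLE scaling, -0.0605 with upper quartile scaling and -0.0157 in DESeq2, a shift of -0.10 at most among the other scalings. Directions changed for 4 genes that had not passed. The log2 fold change of Prpf6 was -0.0409 with upper quartile scaling, -0.0035 with at least 10 counts in every library and -0.0873 after the GC and length correction. The log2 fold change of Prpf4b was 0.226 with that trend removed. The log2 fold change of Prpf38a was 0.136 with it removed, 0.136 without lymphoma 53 and CD4 3 and -0.354 to 0.178 when single libraries were left out, above 0 without CD4 3. The log2 fold change of Prpf40b was -0.218 to 0.159 when single libraries were left out, above 0 without lymphoma 34, lymphoma 53 or CD4 2. The cause was not tested. The GC and length correction and the joint omission of lymphoma 53 and CD4 3 were chosen after seeing the data. No paired analysis was possible because the groups share no replicate numbers. Few counts per library limit Srsf12, Srsf4, Snrpf, U2af1l4, Hnrnph2 and Snrpn.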

Other observations

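The genes named here were chosen after their values were seen. Tra2b, a splicing activator related to SR proteins, was at 369, 518 and 844 CPM in CD4 1, 2 and 3 and at 278 to 420 CPM in the lymphomas, so CD4 3 was highest, as for Srsf5 and Clk1, and the groups overlapped (log2 fold change -0.70, SE 0.228, edgeR adjusted p = 0.0242). Snrnp70, the U1 protein with an RS-rich tail, was at 347 to 609 CPM in lymphoma and 482, 531 and 443 CPM in CD4 (log2 fold change 0.02, edgeR adjusted p = 0.949), whereas its U1 partner Snrpa had the largest rise of all members. The Prmt5 partners Wdr77 (1.56) and Clns1a (1.84), which hold Sm proteins for methylation, were higher by edgeR at adjusted p = 0.0013 and 1.90e-05, with every lymphoma above every CD4 library.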
